A study of Homo sapiens with 4 samples.

Results

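The mRNAs of 8 genes of cholesterol synthesis and its control were followed in RNA pulled down by an antibody to EXOSC10 or by control IgG. The genes were HMGCS1, PMVK, INSIG1, SQLE, FDFT1, LSS, DHCR7 and SREBF2. They were taken by symbol from a deposited table of 12838 gene symbols, and all 8 had an entry. EXOSC10 is a nuclear 3′ to 5′ exoribonuclease of the RNA exosome, the main RNA-degrading complex of the nucleus. The cells were LM2-4175, a line selected for metastasis to the lung from MDA-MB-231 human breast carcinoma cells, and every culture carried the same doxycycline-inducible construct of CerS4, a ceramide synthase, under puromycin and hygromycin selection. The 4 groups were EXOSC10 from cells given doxycycline at 5 µg/mL for 48 h, EXOSC10 from untreated cells, IgG from cells given doxycycline and IgG from untreated cells. Each group had 1 library, so no difference between a pair of libraries has a replicate check. The study asks what a complex of PD-L1 with Caprin-1 does to the decay of mRNA under a changed lipid metabolism, and sets EXOSC10-bound RNA with doxycycline against that without it as its primary comparison.

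Cholesterol is built from acetyl-CoA through mevalonate, the isoprenoid pyrophosphates, squalene and lanosterol. The transcription factor SREBP-2, the product of SREBF2, switches on nearly every gene of this route when sterols in the endoplasmic reticulum are low. INSIG1, itself an SREBP target, holds the precursor of SREBP-2 in the endoplasmic reticulum when sterols are plentiful, so that the route is under feedback control. Ceramide and sphingomyelin are partners of cholesterol in membranes.

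Because SREBP-2 acts at promoters, the sequences just before the annotated start are shown for the 5 members whose window in the RefSeq promoter table (GRCh38.p14) lies at the outermost start of the gene. Each stretch runs from base 180 to base 41 before the start, 5′ to 3′ on the strand of the gene. The stretches lie at chr5:43313453-43313592 (minus strand) for HMGCS1, chr7:155297698-155297837 (plus strand) for INSIG1, chr21:46228815-46228954 (minus strand) for LSS, chr11:71449084-71449223 (minus strand) for DHCR7 and chr22:41832925-41833064 (plus strand) for SREBF2. Capitals mark matches on either strand to the consensus of the sterol regulatory element, TCACNCCAC, which binds SREBP-2, to the CCAAT box (ATTGG on the other strand), which binds NF-Y, and to the GC box GGGCGG, which binds Sp1. A pair of GC boxes in the INSIG1 stretch overlaps by a single base.
HMGCS1: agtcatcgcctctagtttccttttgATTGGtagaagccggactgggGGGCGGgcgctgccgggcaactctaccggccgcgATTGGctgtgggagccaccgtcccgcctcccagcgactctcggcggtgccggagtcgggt
INSIG1: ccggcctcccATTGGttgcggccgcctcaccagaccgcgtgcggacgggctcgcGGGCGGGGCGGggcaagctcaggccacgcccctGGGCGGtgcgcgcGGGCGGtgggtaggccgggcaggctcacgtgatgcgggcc
LSS: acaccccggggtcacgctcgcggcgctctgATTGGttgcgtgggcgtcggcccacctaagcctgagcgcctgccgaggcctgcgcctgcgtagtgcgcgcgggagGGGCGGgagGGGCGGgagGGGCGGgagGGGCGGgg
DHCR7: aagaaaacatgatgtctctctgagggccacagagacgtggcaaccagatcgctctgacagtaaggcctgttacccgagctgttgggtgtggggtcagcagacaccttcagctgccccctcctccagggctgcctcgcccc
SREBF2: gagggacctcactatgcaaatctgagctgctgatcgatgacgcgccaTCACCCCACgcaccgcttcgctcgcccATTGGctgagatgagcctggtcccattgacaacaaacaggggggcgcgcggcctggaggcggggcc

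The consensus of the sterol regulatory element was found before the start of SREBF2 and in none of the 7 windows of the other 5 members in the table. Among all 35116 promoter windows of 300 bases, 1.13% held it. HMGCS1, INSIG1, LSS and SREBF2 held a CCAAT box and a GC box in the window at their outermost start. Of all windows, 34.6% held a CCAAT box and 45% a GC box. DHCR7 had no match at its outermost start, while its second window held 2 CCAAT boxes and 4 GC boxes. The single PMVK window, inside the gene, held 1 GC box. A match is a description of the letters, and no match says nothing on the factor. SQLE and FDFT1 are named only.

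The libraries held between 3723286 and 7575128 estimated reads. Ribosomal RNA genes took between 56.3% and 83.8% of them. The doxycycline EXOSC10 library had the most reads on other genes, 2408177, against 1023361 to 1229744 in the other libraries. No entry of CERS4 or of CD274, which encodes PD-L1, was analysed here, and induction of CerS4 was therefore not checked. All 14 markers of MDA-MB-231 and LM2 cells had entries, VIM with 2079 reads or more in every library. Not all of the 14 were high: IL13RA2 had at most 31 reads, KYNU at most 36 and MMP1 at most 75. Of the markers of other cell types, 1 of 6 for blood (LYZ, at most 15 reads), 1 of 4 for endothelium (PECAM1, at most 31 reads), 2 of 5 for fibroblasts (COL1A1 and COL1A2, at most 66 reads) and 4 of 6 for luminal epithelium had entries. Among the luminal markers KRT19 had 1163 and 411 reads in the EXOSC10 libraries with and without doxycycline, against 185 and 205 in the IgG libraries with and without it. PTPRC, VWF, CDH5, DCN, LUM, EPCAM and ESR1 had none.

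Levels are given as scaled CPM, the deposited CPM divided by a library factor from the trimmed mean of M values (TMM), and are compared only within a gene. Ratios are on the log2 scale with 0.2 CPM added, which understates the ratios of low genes. The 95% intervals are Clopper-Pearson intervals on the estimated reads and cover counting error only. A gene is called higher or lower at 2-fold with 100 or more reads in the pair of libraries together. The minimum is on the sum, so a gene can pass it through the library where it is high alone. Calls of such genes rest in part on the filter. In these bulk samples a lower level per cell and fewer cells with the mRNA cannot be told apart, and without an input library the amount of an mRNA and its share bound to EXOSC10 cannot be told apart either.

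**Figure D1:**
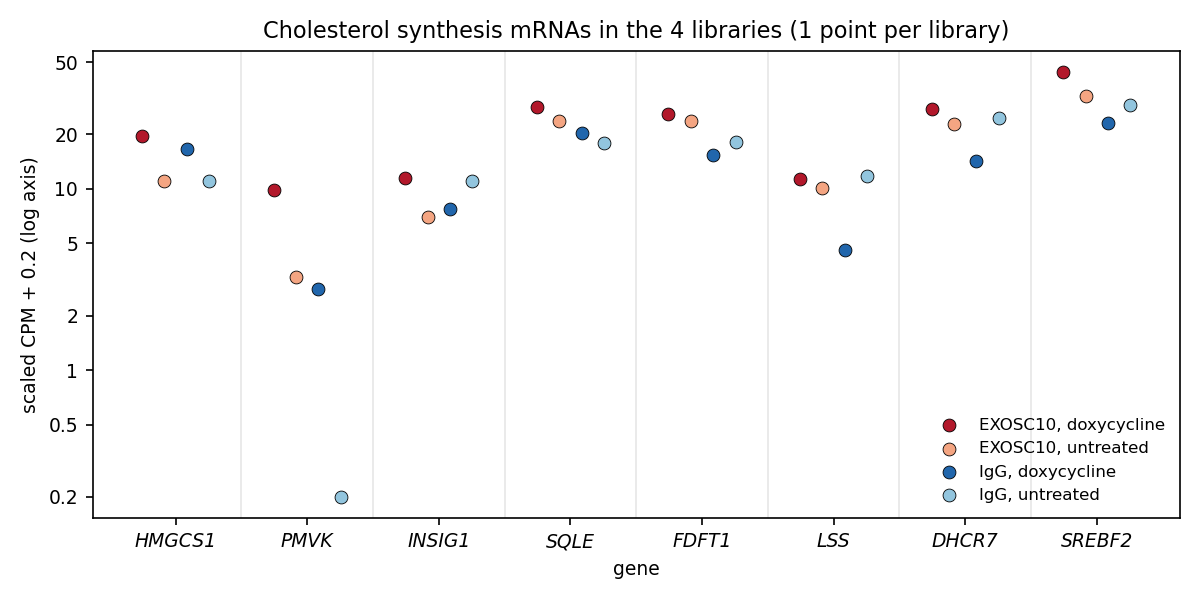
Scaled CPM plus 0.2 (log axis) of the 8 genes, 1 point per library, coloured by antibody and treatment. The doxycycline EXOSC10 library is the highest of the 4 for every gene except LSS, and the untreated IgG library of PMVK sits at 0 CPM.

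The upstream control genes were SREBF2 and INSIG1. SREBF2 (chr22:41833105-41907305) had 44.1 scaled CPM in the doxycycline EXOSC10 library and 32.6 in the untreated EXOSC10 library, against 22.9 with IgG after doxycycline and 28.9 with IgG in untreated cells. Both EXOSC10 libraries thus lay above both IgG libraries, and with doxycycline the gap was wider. With EXOSC10, the ratio of doxycycline over untreated was 0.43 (0.19 to 0.69), and with IgG it was -0.34 (-0.81 to 0.13). SREBF2 has the deepest counts of the 8 genes, 933 reads in all, and overlaps SREBF2-AS1, which has an entry of its own. The estimated reads of SREBF2 were not whole, as happens when reads are divided between gene models.

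INSIG1 (chr7:155297878-155310235) had 11.2 scaled CPM in the doxycycline EXOSC10 library and 6.83 in the untreated EXOSC10 library, against 7.54 with IgG after doxycycline and 10.9 with IgG in untreated cells. The EXOSC10 library was the higher one with doxycycline and the lower one without. The doxycycline ratio was 0.70 (0.18 to 1.28) with EXOSC10 and -0.52 (-1.35 to 0.28) with IgG. The IgG pair held 54.9 reads together, under the minimum of 100.

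HMGCS1 and PMVK act early, on the way to and from mevalonate. HMGCS1 (chr5:43287470-43313412), the cytosolic HMG-CoA synthase, had 19.5 scaled CPM in the doxycycline EXOSC10 library and 10.9 in the untreated EXOSC10 library, against 16.4 with IgG after doxycycline and 10.9 with IgG in untreated cells. Both doxycycline libraries were above both untreated libraries, whichever antibody was used. The ratio was 0.83 (0.42 to 1.28) with EXOSC10, or 1.78-fold, and 0.58 (-0.08 to 1.29) with IgG on 85 reads. With TMM scaling and summed entries, HMGCS1 is the only member besides PMVK and SQLE with a doxycycline ratio above 0 with both antibodies.

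PMVK (chr1:154924740-154942658), phosphomevalonate kinase, was the 1 member called higher with doxycycline in the EXOSC10 libraries. It had 133 reads in the doxycycline EXOSC10 library and 16 in the untreated EXOSC10 library, against 8.90 with IgG after doxycycline and 0 with IgG in untreated cells. The doxycycline EXOSC10 library carried most of its reads, and the other 3 libraries held few or none. Scaled, this was 9.65 CPM against 3.06 CPM in the EXOSC10 pair, a ratio of 1.60 (0.91 to 2.51), or 3.02-fold. With IgG, the 8.90 reads against a floor of 3 reads in the untreated library give at least 2.31-fold higher. PMVK has a single entry.

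FDFT1, SQLE and LSS lead in succession from farnesyl pyrophosphate to squalene, its epoxide and lanosterol. FDFT1 (chr8:11795582-11839298), squalene synthase, had 25.8 scaled CPM in the doxycycline EXOSC10 library and 23.7 in the untreated EXOSC10 library, against 15.2 with IgG after doxycycline and 18 with IgG in untreated cells. SQLE (chr8:124998505-125022283), squalene epoxidase, had 28 and 23.5 in the EXOSC10 libraries with and without doxycycline, against 20.2 and 17.6 in the IgG libraries with and without it. For both enzymes the EXOSC10 libraries were the higher pair and doxycycline made little difference within it. The EXOSC10 ratios were 0.12 (-0.18 to 0.43) for FDFT1 and 0.25 (-0.04 to 0.56) for SQLE, and neither interval leaves out equality. With IgG they were -0.24 (-0.84 to 0.35) for FDFT1 and 0.19 (-0.36 to 0.76) for SQLE.

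LSS (chr21:46188446-46228774), lanosterol synthase, had 11.2 scaled CPM in the doxycycline EXOSC10 library and 9.93 in the untreated EXOSC10 library, against 4.38 with IgG after doxycycline and 11.6 with IgG in untreated cells. The doxycycline IgG library was the one apart from the rest, and it held 15 reads. The EXOSC10 ratio was 0.17 (-0.29 to 0.65), and the IgG ratio was -1.37 (-2.40 to -0.48) on 46 reads, under the minimum. DHCR7 (chr11:71427287-71449043), the last enzyme of the route, which reduces 7-dehydrocholesterol, showed a like order: 27.3 scaled CPM in the doxycycline EXOSC10 library and 22.7 in the untreated EXOSC10 library, against 14.0 with IgG after doxycycline and 24.4 with IgG in untreated cells. Its ratio was 0.26 (-0.04 to 0.57) with EXOSC10 and -0.79 (-1.37 to -0.24) with IgG.

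**Figure D2:**
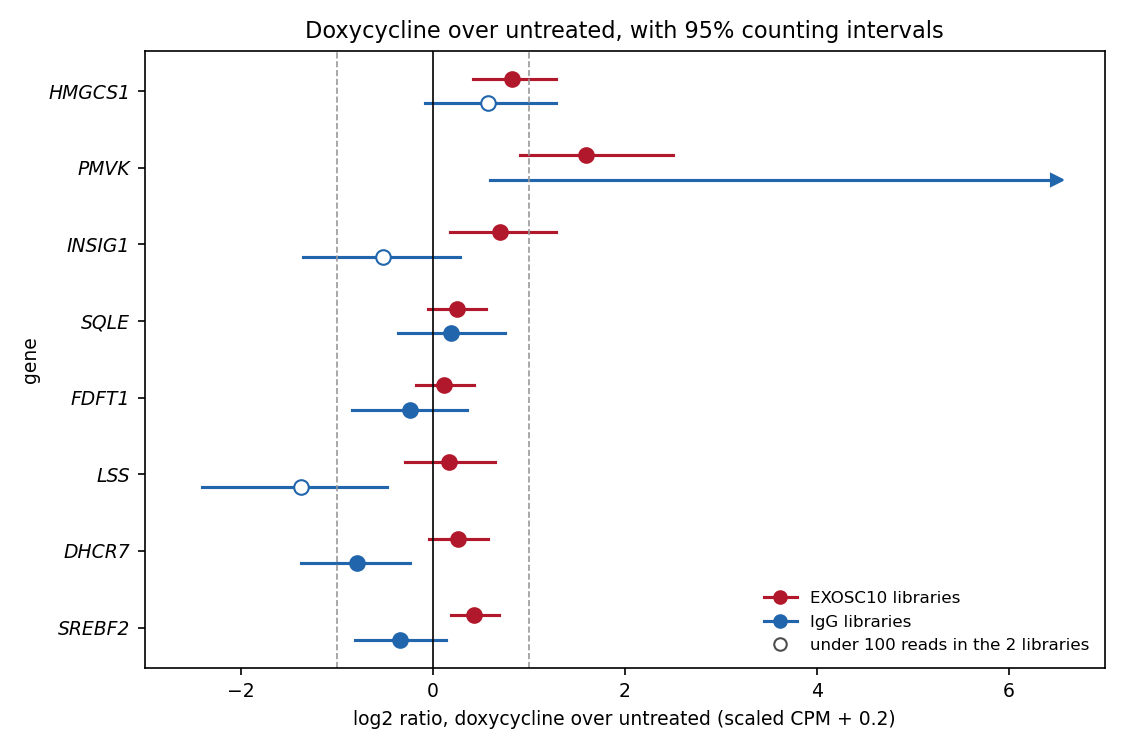
Log2 ratio of doxycycline over untreated for each gene (rows) in the EXOSC10 libraries (upper point of each row) and the IgG libraries (lower point). Bars are 95% counting intervals, dashed lines mark 2-fold, open points have under 100 reads, and the arrow for PMVK has no upper bound because the untreated IgG library held 0 reads. All 8 EXOSC10 points lie above 0 with TMM scaling, although FDFT1 moves to -0.00 with median-of-ratios factors.

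In the EXOSC10 libraries, doxycycline over untreated, all 8 members had 100 or more reads, and 1 of 8, PMVK, was called higher and 0 lower. Over all 6581 genes tested, 6.06% were called higher and 3.98% lower, so the count of 1 in 8 is not a result about the members. The members shared their direction: 8 of 8 had a ratio above 0, against 47.3% of all genes tested, with FDFT1 at -0.00 under median-of-ratios factors as the 1 exception among 5 scalings. The intervals of HMGCS1, PMVK, INSIG1 and SREBF2 lay wholly above 0, 4 of 8 against 22.2% of all genes. HMGCS1, PMVK, INSIG1 and LSS reached the minimum of 100 reads only through the doxycycline library, with 57, 16, 35.8 and 52 reads untreated. The members' median was 0.35 and that of all genes -0.04. Among the 4311 genes with as many reads as the members, 149 to 778 in the pair, the median was -0.03. The members were chosen with earlier results of these libraries known, so these shares describe the members and test nothing.

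With IgG, doxycycline over untreated, 4 members had 100 reads, SQLE, FDFT1, DHCR7 and SREBF2, and 0 of 4 were called either way, where 3.11% of 3022 genes were called higher and 3.44% lower. Their median was -0.29, against -0.05 for all genes. DHCR7 was the 1 of 4 whose interval lay below 0, as did 27.2% of all genes. Reads of all 8 members added together gave 2435 in the doxycycline EXOSC10 library and 697 in the untreated EXOSC10 library, a ratio of 0.41 (0.29 to 0.53). In the IgG libraries they gave 353 with doxycycline and 326 untreated, a ratio of -0.25 (-0.47 to -0.02).

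EXOSC10 over IgG compares the antibodies within a treatment. With doxycycline, all 8 members were on the EXOSC10 side of 0 under each of the 5 scalings, and 2 of 8 were called higher, PMVK at 1.81 (0.92 to 3.06) and LSS at 1.31 (0.58 to 2.22). Of all 6271 genes tested, 14.0% were called higher and 26.6% lower. With the library total 8 of 8 passed 2-fold, as did 80.9% of all genes, and with the total outside ribosomal RNA 8 of 8, as did 51.9%. With upper quartile factors 4 of 8 did, against 20.1% of all genes. DHCR7 was at 0.95 (0.52 to 1.43), SREBF2 at 0.94 (0.61 to 1.31), FDFT1 at 0.75 (0.34 to 1.21) and SQLE at 0.47 (0.10 to 0.87). INSIG1 at 0.56 (-0.03 to 1.24) and HMGCS1 at 0.25 (-0.17 to 0.70) had intervals that reached 0. Of the members, 8 of 8 had a ratio above 0, against 51.3% of all genes, and 6 of 8 an interval above 0, against 32.0%. The median was 0.85, against 0.04 over all genes. In the doxycycline IgG library each of the 8 members had under 100 reads, SREBF2 the most with 78.2. All of them reached the minimum only through the EXOSC10 library, where they are high. The members were chosen with earlier results known, so these shares too describe them and test nothing.

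In untreated cells, only SQLE, FDFT1, DHCR7 and SREBF2 had 100 reads in the EXOSC10 and IgG libraries together. They stood at 0.41, 0.39, -0.10 and 0.17, and each interval included 0. None of the 4 was called, where 5.47% of 3602 genes were called higher and 36.1% lower. Their median was 0.28 against -0.45 for all genes. With a minimum of 20 reads, which takes in HMGCS1 (0.00), INSIG1 (-0.66) and LSS (-0.22), the median over 7 members was 0.00, against 0.06 for all genes. PMVK had 16 reads with EXOSC10 and 0 with IgG, at least 2.71-fold higher against the floor of 3 reads.

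**Figure D3:**
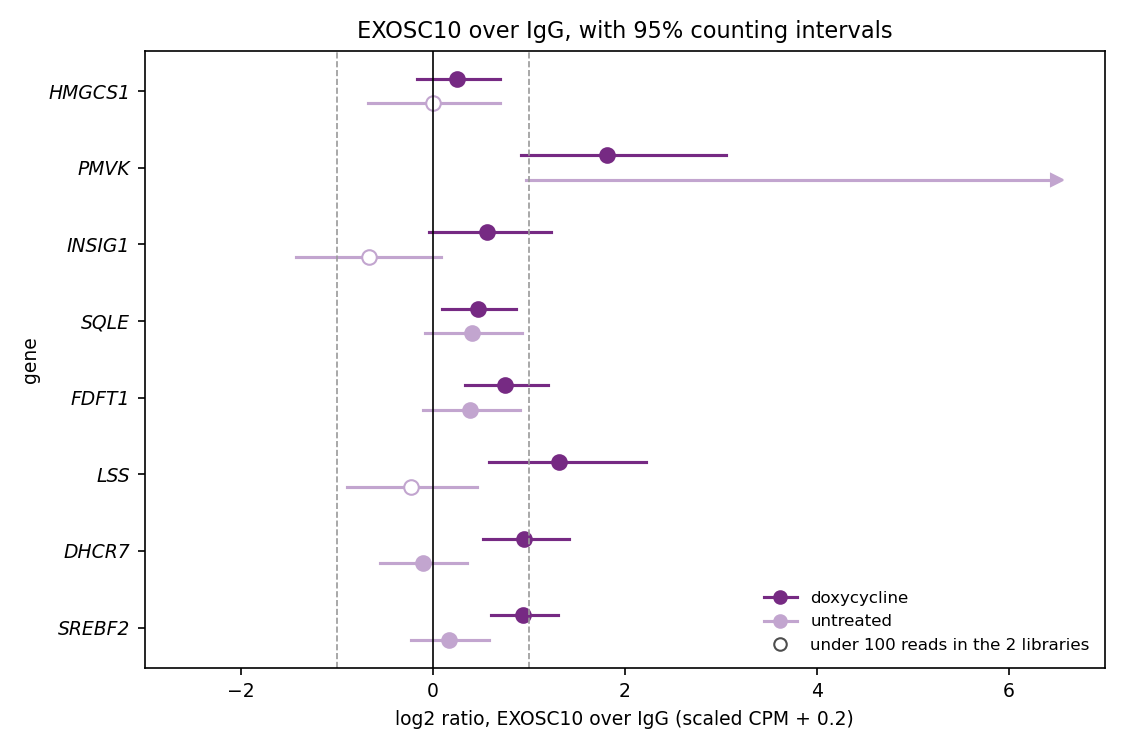
Log2 ratio of EXOSC10 over IgG for each gene with doxycycline (upper point of each row) and untreated (lower point), with 95% counting intervals. Dashed lines mark 2-fold and open points have under 100 reads. With doxycycline all 8 points lie above 0, and PMVK and LSS pass 2-fold.

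The change of enrichment, EXOSC10 over IgG with doxycycline minus the same untreated, uses all 4 libraries. DHCR7 was at 1.05 (0.44 to 1.67) and was called higher, as were 5.00% of 3582 genes, and 10.9% of genes were called lower. The call ended with median-of-ratios factors, where DHCR7 was at 0.97, and with its largest entry alone, where it was at 0.22. SREBF2 was at 0.77 (0.25 to 1.28), FDFT1 at 0.36 (-0.28 to 1.00) and SQLE at 0.06 (-0.55 to 0.67). These 4 members had 100 reads in each antibody pair, and their median was 0.56, against -0.12 over all genes. With the largest entries the median was 0.27. LSS at 1.54 (0.54 to 2.53) and INSIG1 at 1.22 (0.29 to 2.15) were larger but fell short of that minimum, and HMGCS1 was at 0.25 (-0.52 to 1.02). For PMVK no change of enrichment is given, since its untreated IgG library held no read.

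The additive tests by limma use all 4 libraries, with the other factor standing in for replication and 1 residual degree of freedom. For EXOSC10 against IgG with treatment as covariate, 0 of 8 members passed an adjusted p of 0.05, where 1.23% of 9520 genes passed on the higher side and 15.7% on the lower. PMVK, the 1 member with an unadjusted p under 0.05, had a limma adjusted p of 0.073, with an estimate of 2.92 that depends on the added 0.2 CPM. It was higher with EXOSC10 in both treatments. The other members had limma adjusted p-values between 0.244 and 0.952. Scaled to the total outside ribosomal RNA, 7 of 8 members passed this limma test, all but INSIG1 (adjusted p 0.126), and so did 36.4% of all genes on the higher side, with the median of all genes at 1.20. For doxycycline with antibody as covariate, limma called 0 of 9520 genes, and 428 had an unadjusted p under 0.05. Among the members 1 did, PMVK, with a limma adjusted p of 0.846 and an estimate of 2.70.

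A list of 46 other genes of sterol synthesis, SREBP control, cholesterol transport and the isoprenoid side branch had 43 with an entry, and in the primary comparison these lay on both sides of 0. IDI2, STARD4 and ABCG1 had none. With EXOSC10, doxycycline over untreated, 21 had 100 reads. Of these, 0 were called higher and 1 lower, against 6.06% and 3.98% of all genes tested. Those above 0 numbered 10, and the median of the 21 was -0.03. The intervals of 5 lay wholly above 0 and those of 6 wholly below. MVD, the enzyme after PMVK, was at 0.64 (0.16 to 1.18) and CYP51A1, which demethylates lanosterol, at 0.44 (0.12 to 0.77). On the other side, RNF139, a ubiquitin ligase of the endoplasmic reticulum, was at -0.66 (-0.90 to -0.42). NUS1, a subunit of the enzyme that makes dolichol, was the 1 gene called lower, at -1.0 (-1.32 to -0.70), and with the library total it was at 0.00. MVD lies outside the rule for named genes and was chosen after its value was seen.

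A minimum of 100 reads leaves out many enzymes of the late route. With a minimum of 20 reads, an alternative added after the data were seen, 41 other pathway genes were tested in place of 21. Of these 41, 7 were called higher and 4 lower, where 16.7% of all 11223 genes were called higher and 7.72% lower. The median of the 41 was 0.25, against 0.04 for all genes. Among those between the minimums, NSDHL had 83 reads with doxycycline and 7 untreated in the EXOSC10 libraries (2.02, 1.06 to 3.53), LBR 88.6 and 7.69 (1.99, 1.07 to 3.41), and HSD17B7 48 and 4.12 (1.90, 0.71 to 4.05). NSDHL, LBR and HSD17B7 reached the minimum of 20 reads only through the doxycycline library, where they are high. The other 2 genes of the squalene to cholesterol list between the minimums were TM7SF2, with 30.3 reads with doxycycline and 25 untreated (-1.05, -1.93 to -0.29), and EBP, with 68.0 and 24 (0.10, -0.58 to 0.84). These 5 act on the sterol ring between lanosterol and cholesterol, lay on both sides of 0, and were named after their values were seen. TM7SF2 and LBR both encode sterol reductases of the same step. LBR and HSD17B7 held fractions of reads.

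**Figure D4:**
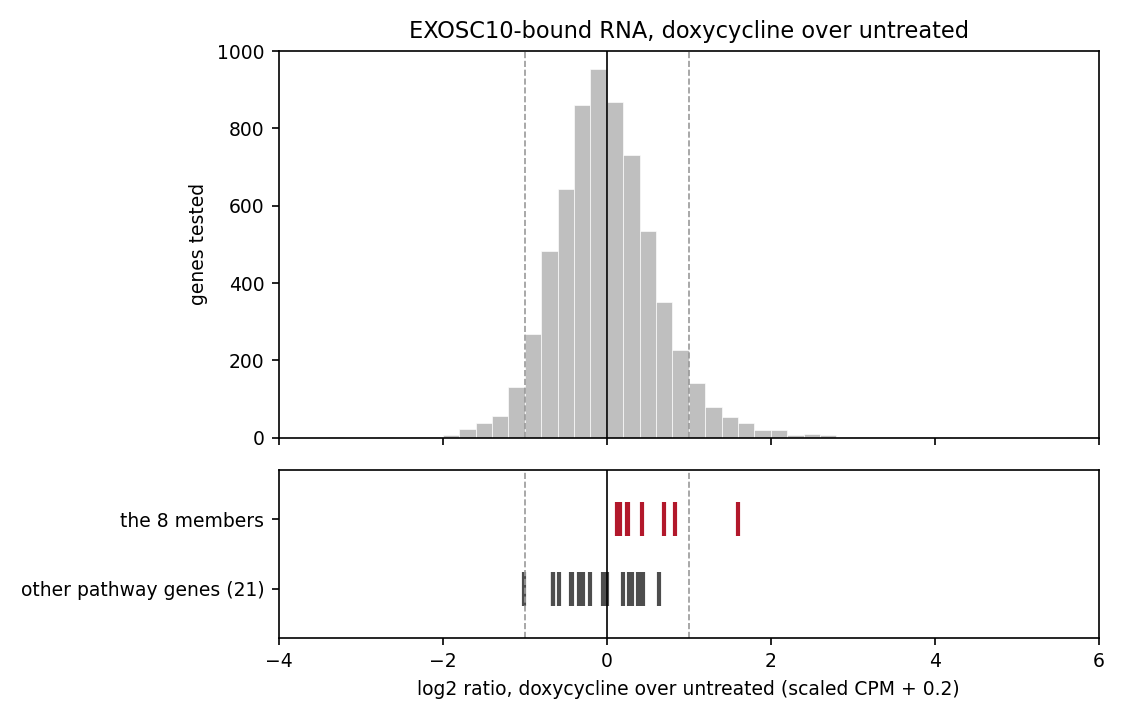
Upper panel, number of genes per bin of 0.2 in the log2 ratio of doxycycline over untreated in the EXOSC10 libraries, over the 6581 genes with 100 or more reads, with values beyond the axis placed in the end bins. Lower panel, the 8 members and the other 21 pathway genes with 100 reads, 1 tick per gene. With TMM scaling the members lie between 0.12 and 1.60, and the other pathway genes lie on both sides of 0 with a median of -0.03.

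In EXOSC10 over IgG the same list of other genes was spread widely. With doxycycline, 1 of 21 was called higher and 3 lower, where 14.0% of all 6271 genes were called higher and 26.6% lower. SCARB1, the HDL receptor, was called higher at 2.0 (1.23 to 3.05), on 201 reads with EXOSC10 and 11.9 with IgG. RNF139 was called lower at -2.14 (-2.35 to -1.94). With the library total, which moves the median of all genes to 2.47, RNF139 stood at 0.32, above 0, and with the total outside ribosomal RNA at -1.10. SCARB1 was called higher under each of the 5 scalings. Untreated, CYP51A1 (-1.09), MARCHF6 (-1.04), a further ubiquitin ligase of the endoplasmic reticulum, and RNF139 (-2.25) were called lower with TMM scaling, and RNF139 under the other 4 scalings too. These were 3 of 14 genes tested, with 0 called higher, where 5.47% of 3602 genes were called higher and 36.1% lower. In the change of enrichment 14 genes of the list were tested, and 2 were called higher and 1 lower. Of all 3582 genes, 5.00% were called higher and 10.9% lower. SCARB1 (1.40, 0.37 to 2.44) was among those called higher, and NUS1 (-1.04, -1.58 to -0.51) was called lower. With the library total NUS1 was at 0.62.

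**Figure D5:**
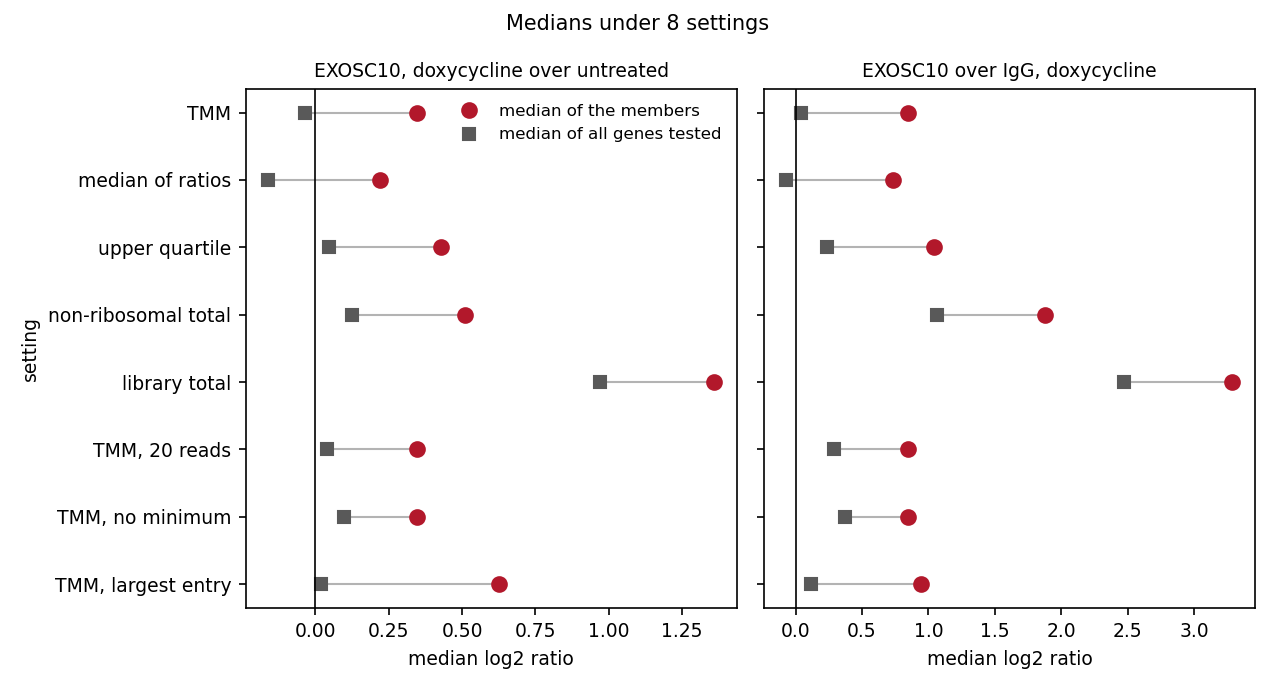
Median log2 ratio of the members (circles) and of all genes tested (squares) under 5 scalings with a minimum of 100 reads and 3 other settings with TMM scaling, for doxycycline over untreated with EXOSC10 (left) and for EXOSC10 over IgG with doxycycline (right). A scaling shifts both medians together by construction. Over the 3 other settings the gap lies between 0.25 and 0.61 on the left and between 0.47 and 0.83 on the right. With the largest entry 7 members were tested.

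How far a member is above 0 depends on the scaling. With the library total the members' median in the primary comparison was 1.36 and that of all genes 0.97, and 8 of 8 members passed 2-fold, as did 47.8% of all genes. A library factor shifts every gene alike, so the gap between the medians of the members and of all genes, 0.38 with TMM, cannot move much with it. The settings that can move it gave 0.31 with a minimum of 20 reads, 0.25 with no minimum and 0.61 with the largest entry of each gene. With the largest entry only 7 members were tested. HMGCS1 fell under the minimum, with 78.5 reads with doxycycline and 18.3 untreated in the EXOSC10 libraries. For EXOSC10 over IgG with doxycycline the gap was 0.80 with TMM, 0.56 with a minimum of 20 reads, 0.47 with no minimum and 0.83 with the largest entry, again over 7 members.

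Several members are listed as more than 1 entry, which carry no transcript name. HMGCS1 had 9 entries, LSS 4, FDFT1 2 and DHCR7 2, and the others 1 each. The largest DHCR7 entry, by the reads of all libraries together, held 93.1% of the gene's reads in the doxycycline EXOSC10 library and 72.0% in the untreated EXOSC10 library, against 91.7% with IgG after doxycycline and 39.4% with IgG in untreated cells. That of LSS held 87.6% and 40.4% in the EXOSC10 libraries with and without doxycycline, against 98.8% and 42.0% in the IgG libraries with and without it. In FDFT1, LSS and DHCR7 alike both doxycycline libraries were above both untreated ones, FDFT1 with 93.8% or more against 83.3% or less. The largest HMGCS1 entry held 29.2% to 34.8% in every library, but its smallest entries did not divide evenly. Entry 7 by reads held 7.91% and 3.87% in the EXOSC10 libraries with and without doxycycline. In the IgG libraries it held 0.607% and 0.0416% with and without it, and entries 8 and 9 had the same order. Entries of a gene share reads, so these divisions are estimates.

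The values of LSS and DHCR7 depend on summing their entries. With the largest entry alone, LSS was at 1.25 in the primary comparison in place of 0.17, and DHCR7 at 0.63 in place of 0.26. With IgG, DHCR7 was then at 0.41 in place of -0.79, on the other side of 0, and LSS at -0.17 in place of -1.37. HMGCS1, with 0.68 in place of 0.83, and FDFT1, with 0.38 in place of 0.12, moved within their intervals in the primary comparison.

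Among themselves the members had unlike profiles. By Euclidean distance of gene-centred log2 levels over the 4 libraries, SQLE was nearest to the members' mean profile (0.33), followed by SREBF2 (0.39) and FDFT1 (0.43), and PMVK was farthest (3.49). Of 7468 genes outside the pathway lists, the nearest to that mean were UQCRC2 (0.04), MRPS25 (0.07) and IFRD2 (0.07). PMVK, with its 0 reads in 1 library, weighs heavily in this mean, and 4 libraries give a loose measure of likeness.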

How the data were processed

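RNA from 4 immunoprecipitations was sequenced, 1 library per group. The authors deposited a table whose values are CPM, scaled to a fixed column total, plus a constant of 0.0001 on each of 24015 entries, as the column sums show. STAR, Partek and hg38 are named per the submitters' processing notes. For the annotation, counting rule and strand, nothing is given in the sources used here. The constant was taken off and entries of a symbol were added. The low values lie on steps of 1 read, worth 0.181, 0.236, 0.132 and 0.269 CPM in the doxycycline EXOSC10, untreated EXOSC10, doxycycline IgG and untreated IgG libraries, and reads were estimated as CPM over this step. Between 67.2% and 70.5% of genes per library came within 0.05 of a whole read, so no count model was used. TMM (30% and 5% trimmed, on rounded reads) gave factors of 2.50, 1.24, 0.452 and 0.715 in that order. Intervals cover counting error only, since reads are not independent molecules. The limma tests (version 3.58.1, R 4.3.3) used log2(CPM + 0.2) with a mean-variance trend, genes with 10 reads in 2 libraries, and Benjamini-Hochberg adjustment at 0.05. Nothing says that the libraries are separate cultures. The 1 residual of the additive model holds the change of enrichment together with any spread between libraries, so its p-values do not measure a spread between replicates. Python 3.11.15 was used otherwise. Scripts were tested on simulated data. Coordinates are from the GRCh38.p14 gene table, in which 12545 symbols matched, and promoter sequences from RefSeq, where 6 of 8 members matched. Named genes were the members, pathway genes with 100 reads past 2-fold in a comparison or without an entry, and the 3 nearest profiles. MVD, NSDHL, LBR, HSD17B7, TM7SF2 and EBP fall outside this rule. Some genes that it takes in are not reported here. The consensus of the sterol regulatory element was chosen after a stricter form had been searched. The members and lists were chosen with earlier results of these data known. Alternatives were 4 other scalings, a pseudocount of 1 CPM, other minimums of reads and the largest entry of a gene.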

Additional observations from a re-analysis of the deposited data

Results flagged for a closer look

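For 5 members the doxycycline ratio lay on opposite sides of 0 with the 2 antibodies, above 0 with EXOSC10 and below 0 with IgG. The change of enrichment was 1.54 for LSS, 1.22 for INSIG1, 1.05 for DHCR7, 0.77 for SREBF2 and 0.36 for FDFT1. With 1 library per group the difference between antibodies was not tested, and the counting interval of the FDFT1 change includes 0. The doxycycline ratios of FDFT1, LSS and DHCR7 with EXOSC10 and of FDFT1, INSIG1 and SREBF2 with IgG also had intervals that included 0. LSS and INSIG1 had under 100 reads in the IgG pair. The side of 0 follows the scaling: with CPM as deposited, HMGCS1 (-0.07) and SQLE (-0.46) were below 0 with IgG too. For DHCR7 and FDFT1 the opposite signs depend on summing their entries. The largest entry alone gave 0.63 with EXOSC10 and 0.41 with IgG for DHCR7, and 0.38 with EXOSC10 and 0.06 with IgG for FDFT1. With median-of-ratios factors FDFT1 was at -0.00 with EXOSC10 and -0.29 with IgG.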

How the results depend on the processing

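With CPM as deposited, the members' median was 1.36 for EXOSC10 with doxycycline over untreated (8 higher), -0.94 for IgG with doxycycline over untreated (1 lower), 3.29 for EXOSC10 over IgG with doxycycline (8 higher), 1.06 for EXOSC10 over IgG untreated (2 higher) and 2.23 for the change of enrichment. With the total outside ribosomal RNA the medians were 0.51 for EXOSC10 with doxycycline over untreated, 1.88 (8 higher) for EXOSC10 over IgG with doxycycline and 1.29 (3 higher) for EXOSC10 over IgG untreated. Median-of-ratios factors gave 0.22 for EXOSC10 with doxycycline over untreated, and upper quartile factors 1.04 (4 higher) for EXOSC10 over IgG with doxycycline. The largest entry of each gene gave 0.63 (2 higher) over 7 members for EXOSC10 with doxycycline over untreated. A minimum of 20 reads gave 1 lower with IgG, LSS, and 0.0003 for EXOSC10 over IgG untreated, where more members entered. No minimum gave 1 higher and 1 lower with IgG, and 0.0870 with 1 higher for EXOSC10 over IgG untreated. In the limma antibody test, PMVK passed with CPM as deposited (adjusted p 0.0117), a pseudocount of 1 CPM (0.0369) and no filter (0.0330), 1 member each, where 5.16%, 3.55% and 2.96% of all genes passed on the higher side, and 7 members passed with the total outside ribosomal RNA, where 36.4% of all genes did. The limma fit had 8.09 total degrees of freedom in the main setting and 17.4 with a pseudocount of 1 CPM. It had 9520 with CPM as deposited and 12840 with no filter, where the variance was pooled over all genes. For EXOSC10 over IgG untreated, 31.3% of all genes were called higher with CPM as deposited and 38.3% with the total outside ribosomal RNA. The cause of these differences was not tested. Of 256 single-gene ratios under an alternative, 210 stayed within their counting interval and 46 moved. Other minimums of reads leave a ratio as it is by construction, and so does the largest entry for members with 1 entry. Part of the 210 was thus fixed in advance. No called gene changed direction, which covers only PMVK in the primary comparison, and PMVK and LSS in EXOSC10 over IgG with doxycycline. The labels give no replicate numbers, so no replicate block was fitted, and the limma tests take the other factor as the block. Depth limits the IgG ratios, where 4 members had under 100 reads.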
